A study of Homo sapiens with 2 samples.

Results

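The keratin-associated protein genes were taken as every gene interval whose symbol begins with KRTAP, which gave 93 of the 40200 nuclear gene intervals scored in the study. They lie on 3 chromosomes, with 49 on chromosome 21, 33 on chromosome 17 and 11 on chromosome 11. All 93 were matched to protein-coding genes in a RefSeq gene table. The study mapped H3K9me3, trimethylation of lysine 9 of histone H3, by chromatin immunoprecipitation and sequencing with the Abcam antibody ab8898 in KBM7, a human cell line of near-haploid karyotype that derives from chronic myeloid leukemia (CML), grown without any labelled treatment. It holds 1 H3K9me3 library and 1 IgG library, and the IgG library was not analysed here. No value below has a replicate or a control beside it, intervals cover counting error only, and the copy number of these regions in the line was not tested.

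Keratin-associated proteins fill the matrix between the keratin filaments of the hair shaft and cross-link them. They fall into high-sulfur and ultrahigh-sulfur proteins, rich in cysteine, and proteins rich in glycine and tyrosine, and their small genes are switched on in the cortex and cuticle of the growing hair, not in blood cells. H3K9me3 marks constitutive heterochromatin, silenced repeats and some silenced gene clusters.

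Each interval has a deposited read count and a deposited score, its reads per kb. Short intervals nested in long genes held more reads in all than the density of their hosts gives. The correction used here assumes that the excess is of reads that only overhang an end, which was not tested. From 6126 intervals of up to 2 kb nested in gene intervals of at least 10 kb, the overhang was estimated as 369 bp, and the corrected score below is the reads divided by the interval length plus that overhang. The KRTAP intervals are short, with a median of 0.90 kb and a range of 0.199 to 23.6 kb. Their read counts ran from 19 to 1507, with a median of 73, and sum to 11441.

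As a group the KRTAP genes scored above the middle of all genes, but were not a uniformly marked set. The median corrected score was 55.9 reads per kb over the 93 members, against 36.0 over all nuclear gene intervals and 37.2 over those of 0.3 to 3 kb. Of the 93, 78 (83.9%) lay above the median of all intervals, against 50% of all intervals, by definition, and 51.7% of those of 0.3 to 3 kb. Above the 90th percentile of all intervals, at 86.8 reads per kb, were 23 members (24.7%), against 10% of all intervals and 15.7% of those of 0.3 to 3 kb. On the deposited scale the share of members above the 90th percentile of all intervals was 9.68%, near that 10%. By corrected score, 15.1% of members lay above the 90th percentile of the intervals of 0.3 to 3 kb, at 103 reads per kb. By definition 10% of those short intervals do. A peak overlapped 25 members (26.9%, exact binomial 95% interval 18.2 to 37.1%), against 33.5% of all intervals and 15.9% of those of 0.3 to 3 kb, so the members lay below or above the background according to the length of the intervals they are set against. Peaks covered at least 50% of 19 members (20.4%), against 5.55% of all intervals and 10.9% of the short ones. The 300 bp around the start overlapped a peak in 21 members (22.6%), against 9.24% and 11.5%.

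**Figure D1:**
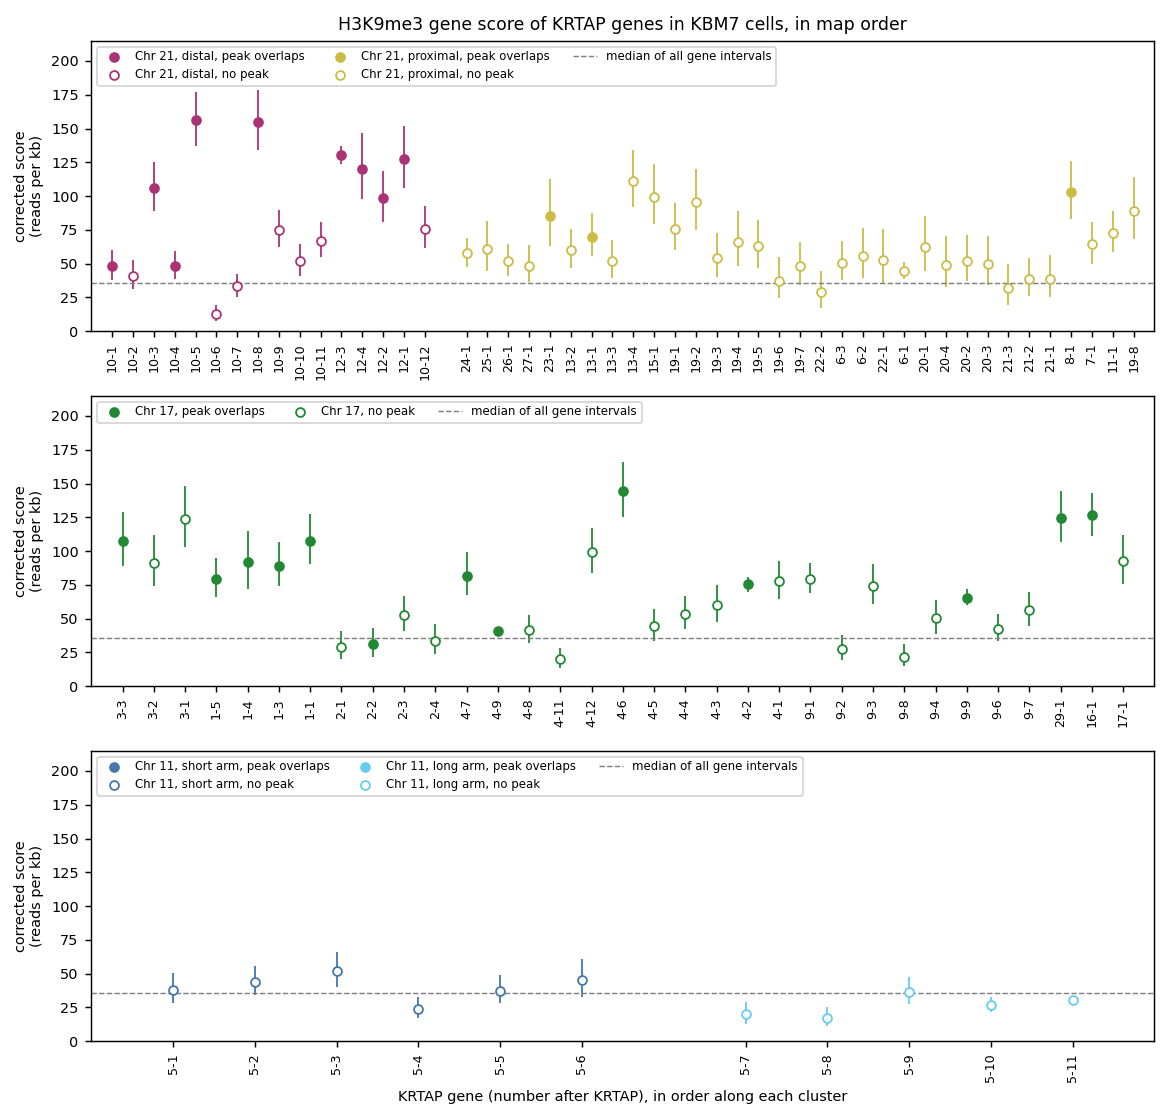
Corrected H3K9me3 score in reads per kb (y axis) of each of the 93 KRTAP genes, in map order within each cluster (x axis); bars are exact Poisson 95% intervals of the count, filled points overlap a peak, open points do not, and the dashed line is the median of all gene intervals (36.0). No chromosome 11 member overlaps a peak, and the highest members are KRTAP10-5 and KRTAP10-8 in the distal chromosome 21 cluster.

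Gaps of more than 1 Mb split the members into 5 clusters, here in hg19 coordinates. On chromosome 21 the distal cluster (chr21:45958864-46117959, 16 members of KRTAP10 and KRTAP12) lies wholly inside TSPEAR, a gene that encodes a protein of hair follicle and tooth development, and the proximal cluster (chr21:31653629-32410795, 33 members) holds the glycine and tyrosine rich families and several small high-sulfur families. The chromosome 17 cluster (chr17:39149686-39471947, 33 members) lies between blocks of type I keratin genes. On chromosome 11 the ultrahigh-sulfur KRTAP5 family is split between the short arm (chr11:1605572-1718985, 6 members) and the long arm (chr11:71238313-71314399, 5 members).

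To show how alike copies within a cluster can be, the start regions of 2 pairs with different scores are printed here. They run from 250 bases before the start to 50 after it, 5′ to 3′, from RefSeq on GRCh38.p14. Capitals mark bases that were not matched when the pair was aligned, the unshared ends included. KRTAP10-5 (chr21:44580555-44580854 on the minus strand) and KRTAP10-11 (chr21:44646164-44646463 on the plus strand) share 249 of 300 bases. KRTAP10-5 lay wholly within a peak and KRTAP10-11 overlapped none.
KRTAP10-5: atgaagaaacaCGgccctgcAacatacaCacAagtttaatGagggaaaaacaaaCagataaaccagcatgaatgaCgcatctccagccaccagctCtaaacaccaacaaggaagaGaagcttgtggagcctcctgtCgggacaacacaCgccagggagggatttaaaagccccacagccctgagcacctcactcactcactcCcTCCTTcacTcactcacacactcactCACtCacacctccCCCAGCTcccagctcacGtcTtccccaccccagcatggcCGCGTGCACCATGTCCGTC
KRTAP10-11: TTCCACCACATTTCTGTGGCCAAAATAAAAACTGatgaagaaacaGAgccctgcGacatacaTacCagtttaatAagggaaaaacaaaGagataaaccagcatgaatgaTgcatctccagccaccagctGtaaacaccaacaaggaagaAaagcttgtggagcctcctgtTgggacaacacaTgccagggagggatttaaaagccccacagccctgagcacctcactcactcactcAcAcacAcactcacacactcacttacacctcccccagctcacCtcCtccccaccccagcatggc

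KRTAP4-7 (chr17:41083900-41084199 on the plus strand) and KRTAP4-8 (chr17:41098093-41098392 on the minus strand) share 269 of 300 bases. A peak covered 79.1% of KRTAP4-7, and KRTAP4-8 overlapped none.
KRTAP4-7: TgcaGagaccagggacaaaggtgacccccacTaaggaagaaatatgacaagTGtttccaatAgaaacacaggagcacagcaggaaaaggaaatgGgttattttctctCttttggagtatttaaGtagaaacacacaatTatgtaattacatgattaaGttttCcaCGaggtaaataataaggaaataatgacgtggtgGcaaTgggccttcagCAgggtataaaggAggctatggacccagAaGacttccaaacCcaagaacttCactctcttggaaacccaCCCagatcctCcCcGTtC
KRTAP4-8: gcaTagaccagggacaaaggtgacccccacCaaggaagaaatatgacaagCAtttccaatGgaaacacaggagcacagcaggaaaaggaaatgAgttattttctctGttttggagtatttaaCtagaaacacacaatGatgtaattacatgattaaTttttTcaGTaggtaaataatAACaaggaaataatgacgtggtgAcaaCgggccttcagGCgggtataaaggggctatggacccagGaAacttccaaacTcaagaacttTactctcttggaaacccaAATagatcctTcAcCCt

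A further member of each chromosome shows the motif that most of these start regions hold: KRTAP8-1 (chr21:30813225-30813524 on the minus strand) and KRTAP29-1 (chr17:41302802-41303101 on the minus strand), both wholly within a peak, and KRTAP5-3 (chr11:1608414-1608713 on the minus strand), with no peak. Capitals mark TATAAA, searched on both strands.
KRTAP8-1: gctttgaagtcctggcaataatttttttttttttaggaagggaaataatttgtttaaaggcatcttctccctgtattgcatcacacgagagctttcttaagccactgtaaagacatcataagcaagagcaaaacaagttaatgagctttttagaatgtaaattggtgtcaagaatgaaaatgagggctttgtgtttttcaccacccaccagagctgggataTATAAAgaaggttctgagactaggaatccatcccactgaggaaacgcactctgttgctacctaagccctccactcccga
KRTAP29-1: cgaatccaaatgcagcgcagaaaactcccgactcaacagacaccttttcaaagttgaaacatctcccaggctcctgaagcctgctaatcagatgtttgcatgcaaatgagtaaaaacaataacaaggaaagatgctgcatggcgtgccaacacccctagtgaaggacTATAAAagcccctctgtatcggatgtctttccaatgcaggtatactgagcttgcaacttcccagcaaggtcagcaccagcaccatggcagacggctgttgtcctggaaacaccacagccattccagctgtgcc
KRTAP5-3: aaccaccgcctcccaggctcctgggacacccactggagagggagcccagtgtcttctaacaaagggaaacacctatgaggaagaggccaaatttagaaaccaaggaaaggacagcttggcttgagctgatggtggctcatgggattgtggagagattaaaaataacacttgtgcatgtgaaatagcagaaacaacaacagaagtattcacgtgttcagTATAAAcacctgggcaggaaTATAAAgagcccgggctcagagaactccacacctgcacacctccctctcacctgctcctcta

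A start region was found in RefSeq for 79 of the 93 members. TATAAA on either strand occurred in 63 of the 79 (79.7%), against 11.5% of 35116 start regions of the same length. The median GC content of the members' start regions was 42.7% against 58.7% over all of them, and the median number of CG dinucleotides was 2 against 14. Among the clusters the median GC content was 55.3% in distal chromosome 21, 38.5% in proximal chromosome 21 and 42.3% in chromosome 17. The motif was present in 11 of 15, 23 of 30 and 28 of 32 start regions of those 3 clusters. On chromosome 11 only 2 members had a start region in the table.

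The 3 chromosomes differed in score, and chromosome 11 was the lowest by each measure given here. Pooled over members, the corrected score was 77.3 reads per kb on chromosome 21 (95% interval 75.2 to 79.4), 63.2 on chromosome 17 (61.4 to 64.9) and 31.2 on chromosome 11 (29.5 to 33.0). Chromosome 21 was 2.47 times chromosome 11 (2.32 to 2.63), and chromosome 17 was 2.02 times chromosome 11 (1.90 to 2.15). Chromosome 21 was 1.22 times chromosome 17 (1.18 to 1.27), but this order did not hold when each gene counted equally. The median over members was 59.9 on chromosome 21, 74.3 on chromosome 17 and 36.6 on chromosome 11, which makes chromosome 21 0.807 times chromosome 17. The pooled ratio fell to 0.944 without the 7 members longer than 3 kb, and to 0.949 without the distal cluster. Chromosomes also differed in their general level: the median of gene intervals of 0.3 to 3 kb was 51.3 on chromosome 21, 28.5 on chromosome 17 and 37.7 on chromosome 11. Divided by these medians, chromosome 21 was 0.679 times chromosome 17.

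The correction mattered most where the genes are shortest. On the deposited scale the pooled score was 106 reads per kb on chromosome 21, 74.4 on chromosome 17 and 34.8 on chromosome 11, and the ratio of chromosome 21 to chromosome 11 was 3.06. In the proximal chromosome 21 cluster, with a median length of 0.44 kb, the pooled score was 60.0 after correction and 95.1 before it. The largest difference in reads per kb was that of KRTAP23-1, a high-sulfur gene of 0.208 kb with 49 reads, at 84.9 reads per kb after correction (62.8 to 112) and 236 before it. The correction divides by a factor set by length, which was greatest for the shortest member, KRTAP22-1 of 0.199 kb, at 52.8 after correction and 151 before it. The distal cluster was 1.58 times the proximal one after correction (1.49 to 1.67), and 1.21 times on the deposited scale.

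**Figure D2:**
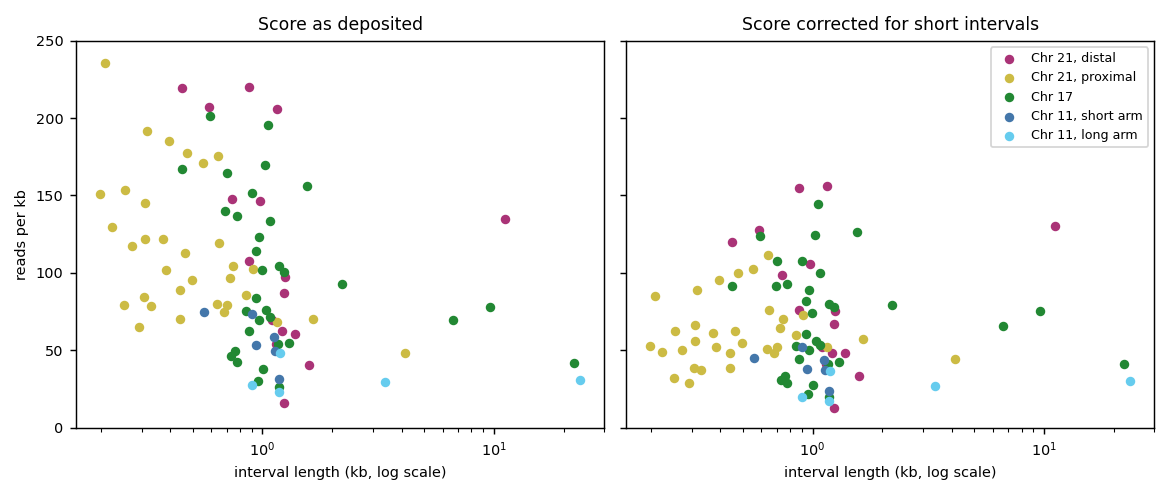
Score in reads per kb (y axis) of each KRTAP gene against the length of its interval in kb (x axis, log scale), as deposited on the left and corrected for short intervals on the right, coloured by cluster. The proximal chromosome 21 genes, of 0.199 to 4.147 kb, reach 111 after correction and 236 as deposited.

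The clusters also differed in how many genes carried a peak. In distal chromosome 21 a peak overlapped 9 of 16 members (56.2%, 29.9 to 80.2%), in chromosome 17 it was 13 of 33 (39.4%, 22.9 to 57.9%), and in proximal chromosome 21 it was 3 of 33 (9.09%, 1.92 to 24.3%). On chromosome 11 it was 0 of 11, which allows a share of up to 28.5%. Chromosome 21 as a whole had 12 of 49 (24.5%, 13.3 to 38.9%), so its share lay between those of its own clusters. Of the 40200 gene intervals 33.5% overlapped a peak, and of those of 0.3 to 3 kb 15.9%. The members of a cluster are neighbours and some share a peak, so they are not independent, and the intervals of these shares describe counting error only.

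The extent of the peaks along the clusters differed as well. Peaks covered 62.5% of the distal chromosome 21 span in 26 peaks with a median width of 3300 bp, the widest 11400 bp. They covered 1.64% of the proximal span in 20 peaks, 16.2% of the chromosome 17 span in 47 peaks, 10.2% of the short-arm span of chromosome 11 in 10 peaks and 4.14% of its long-arm span in 3 peaks. The whole chromosomes stood at 6.32% for chromosome 21, 6.40% for chromosome 17 and 5.58% for chromosome 11. Per Mb there were 163 peaks in distal chromosome 21 and 26.4 in proximal chromosome 21, against 146 on chromosome 17, whose peaks were narrower, with a median of 900 bp.

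**Figure D3:**
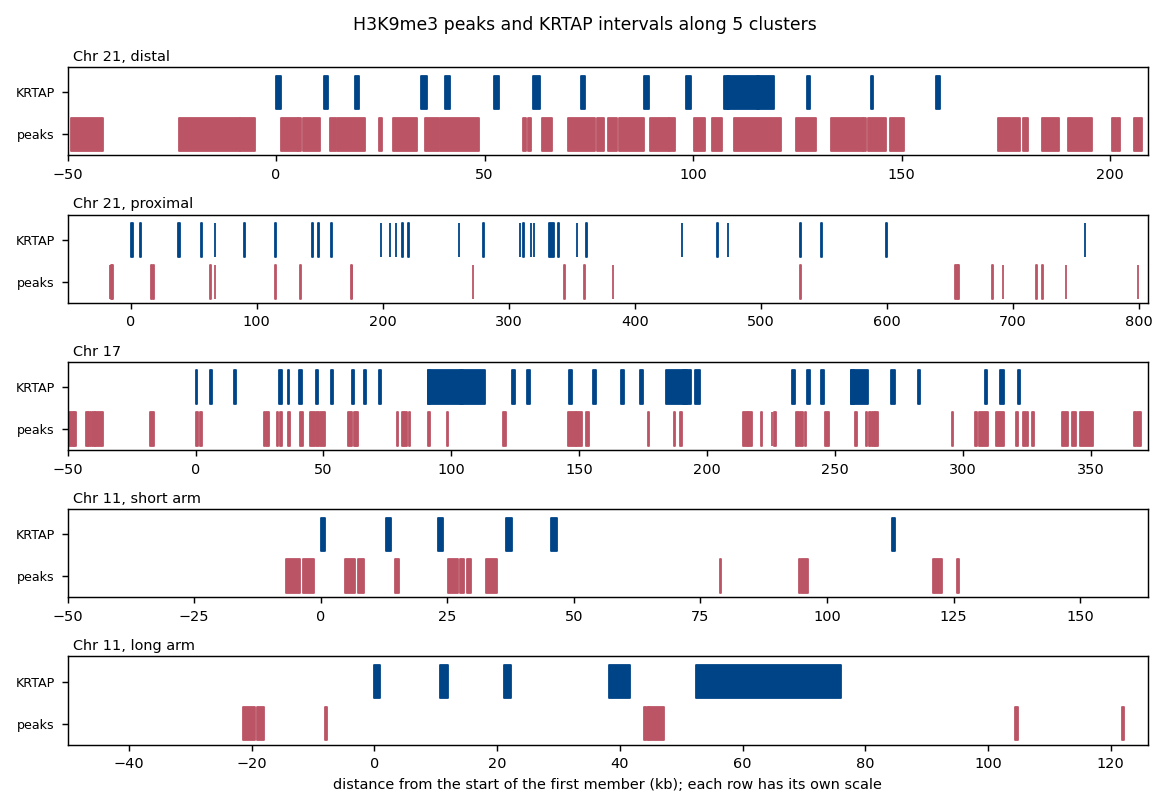
Peaks (lower bars) and KRTAP intervals (upper bars) along each of the 5 clusters, with 50 kb on either side, against distance in kb from the start of the first member; each panel has its own scale. Wide peaks fill 62.5% of the distal chromosome 21 span, and 1.64% of the proximal span lies in peaks.

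Peak cover on the genes and between them depended on how the 7 members longer than 3 kb were treated, a limit set after the values were seen. In distal chromosome 21, 55.3% of the sequence of all members was in peaks, against 63.9% of the rest of the span. With KRTAP12-3, which is 86.2% covered, counted in the rest, the values were 32.8% for members of up to 3 kb against 65.8%. Mean cover was 42.1% within the 15 intervals of up to 3 kb, 52.0% in the first 500 bp outside them, and 75.8% at 1000 to 1500 bp. On chromosome 17 the values were close over all members, at 16.8% against 16.1% of the rest, and stood apart at 26.0% against 15.2% when the intervals over 3 kb were counted in the rest. In proximal chromosome 21 they were 6.44% against 1.51% over all members and 7.95% against 1.5% for members of up to 3 kb. On the short arm of chromosome 11 no member base was in a peak, against 10.7% of the rest. Of its 6 members, 4 had a peak within 2 kb, a share that was not computed over all intervals. On the long arm the values were 0% and 6.88% over all members, and 0% and 4.33% for members of up to 3 kb.

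**Figure D4:**
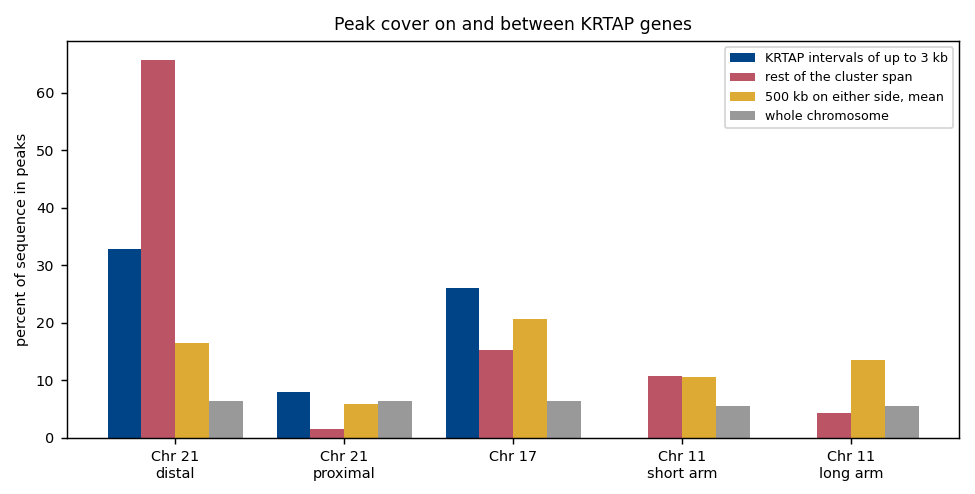
Percent of sequence in peaks (y axis) for KRTAP intervals of up to 3 kb, the rest of each cluster span, 500 kb on either side (mean of both) and the whole chromosome, by cluster. Longer KRTAP intervals are counted in the rest of the span; in distal chromosome 21 the members stand at 32.8% and the rest at 65.8%, and on chromosome 17 at 26.0% and 15.2%, where counting all members gives 55.3% and 63.9%, and 16.8% and 16.1%.

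**Figure D5:**
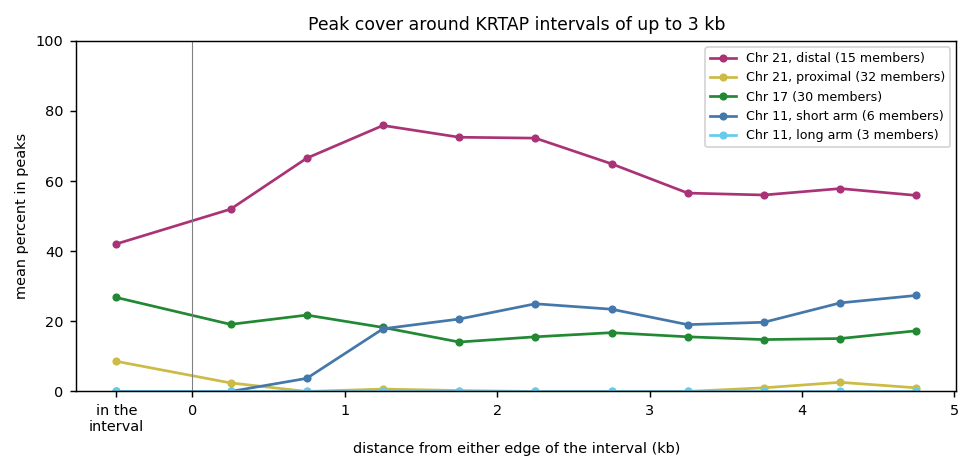
Mean percent of sequence in peaks (y axis) within KRTAP intervals of up to 3 kb and in steps of 500 bp out to 5 kb from either edge (x axis, in kb), by cluster. Cover in distal chromosome 21 is 42.1% in the intervals and 75.8% at 1000 to 1500 bp from them; the long-arm line of chromosome 11 lies at 0.

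Within distal chromosome 21 the 2 families behaved differently. The 4 KRTAP12 genes, which encode high-sulfur proteins, all overlapped a peak over at least 50% of their length and scored 98.4 to 130 reads per kb. KRTAP12-1 scored 127 (106 to 152), KRTAP12-4 120 (97.5 to 146) and KRTAP12-2 98.4 (80.8 to 119). KRTAP12-3 scored 130 from 1507 reads, but its interval of 11.2 kb is far longer than its RefSeq gene of 0.41 kb and contains KRTAP12-4, so its value describes the region. Without it the distal cluster pooled to 75.3 reads per kb in place of 94.6 (91.3 to 98.0).

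The 12 KRTAP10 genes, also of the high-sulfur type, covered the full range of the cluster, from 12.4 to 156, and 5 of them overlapped a peak. KRTAP10-5 held 237 reads and scored 156 (137 to 177), KRTAP10-8 held 193 and scored 155 (134 to 178), and KRTAP10-3 held 142 and scored 106 (89.3 to 125), each wholly within a peak. At the other end KRTAP10-6 held 20 reads and scored 12.4 (7.60 to 19.2), the lowest of all 93. KRTAP10-7 scored 33.1 (25.5 to 42.2) and KRTAP10-2 40.8 (31.3 to 52.4), neither with a peak. KRTAP10-11, whose start region is printed above beside that of KRTAP10-5, scored 66.7 (54.7 to 80.7). Their counting intervals do not overlap.

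The host gene TSPEAR scored 113 reads per kb, with 55.0% of its length in peaks. The 15 members of up to 3 kb inside it pooled to 75.3 against 117 for TSPEAR without them. The ratio was 0.644 (0.611 to 0.677), and 11 of the 15 scored below that remainder. The remainder still includes most of the KRTAP12-3 interval, itself a member, and all of C21orf90, which also lies inside TSPEAR. The genes on either side of the cluster differed. C21orf90, the nearest other gene on the proximal side, scored 201 and lay wholly within a peak, and UBE2G2, a ubiquitin-conjugating enzyme gene on the telomeric side, scored 23.1 with none. Other genes within 500 kb had a median of 24.8 and a pooled score of 62.1, and the members pooled to 1.52 times that pooled score (1.47 to 1.58). This set includes TSPEAR, which gave 24110 of its 60323 reads, the members' own among them. The 36 intervals outside the span pooled to 47.8, and the members to 1.98 times that (1.91 to 2.05). Against the 8 of these of 0.3 to 3 kb, which pooled to 17.4 from 222 reads, the ratio was 5.44 (4.74 to 6.26).

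Proximal chromosome 21 held few peaks. Scores ran from 28.7 to 111, with a median of 55.9, against 51.3 for chromosome 21 gene intervals of 0.3 to 3 kb. Of the 33 members, 31 exceeded the median of all intervals, as 50% of all intervals do by definition, while 3 overlapped a peak. These were KRTAP23-1 and KRTAP8-1, each wholly within a peak, and KRTAP13-1, 75.0% within one. KRTAP13-4, a high-sulfur gene, was the highest at 111 (91.8 to 134), ahead of KRTAP8-1, of the glycine and tyrosine rich type, at 103 (83.2 to 126) and KRTAP15-1 at 99.6 (79.5 to 123). The intervals of these 3 overlap. The lowest were KRTAP22-2 with 19 reads and 28.7 (17.3 to 44.8), KRTAP21-3 with 20 reads and 32.2 (19.6 to 49.7) and KRTAP19-6 with 26 reads and 37.2 (24.3 to 54.5), all of the glycine and tyrosine rich type. Pooled, the 22 genes of that type scored 55.5, against 67.2 for the 11 high-sulfur genes of the cluster, a ratio of 0.826 (0.755 to 0.904). On the deposited scale the ratio was 0.921 (0.842 to 1.01). The flanking CLDN8, a tight junction gene, scored 39.4 with no peak, and AP000251.2, the nearest other interval that begins past the cluster, lies 521 kb away and scored 105, wholly within a peak. The members pooled to 1.04 times the gene intervals within 500 kb (0.997 to 1.09).

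On chromosome 17 the families formed blocks. The 3 KRTAP3 genes at one end scored 91.4 to 124 and the adjoining 4 KRTAP1 genes 79.6 to 108, and all 4 KRTAP1 genes had at least 50% of their length in a peak. KRTAP1-1 held 137 reads and scored 108 (90.4 to 127), and KRTAP3-3, 97.9% in a peak, scored 108 (88.8 to 129). KRTAP1-4 lay wholly within a peak at 91.7, KRTAP1-3 was 78.4% covered at 89.1, and KRTAP1-5 was 64.1% covered at 79.6. The next block, the 4 KRTAP2 genes, scored 28.8 to 52.5, and 1 of the 4 touched a peak. The ranges of KRTAP2 and of KRTAP1 and KRTAP3 do not overlap. All 3 are high-sulfur families.

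The ultrahigh-sulfur families in the middle of the cluster varied most on chromosome 17. The 11 KRTAP4 genes ranged from 20.1 to 145 and the 8 KRTAP9 genes from 21.8 to 79.2. KRTAP4-6 was the highest member of chromosome 17, with 206 reads and 145 reads per kb (126 to 166), wholly within a peak. KRTAP4-11 held 31 reads and scored 20.1 (13.7 to 28.5), KRTAP9-8 held 29 and scored 21.8 (14.6 to 31.3), and KRTAP9-2 held 38 and scored 27.7 (19.6 to 38.0), none with a peak. KRTAP4-7 scored 81.9 (67.1 to 98.9) against 41.2 (31.6 to 52.7) for KRTAP4-8, whose start region is printed beside it above. The far end of the cluster was high again. KRTAP16-1 scored 126 (111 to 143) and KRTAP29-1 125 (107 to 145), both wholly within a peak, and KRTAP17-1 scored 92.7 (75.9 to 112), 173 bp from the nearest peak.

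Pooled over the cluster, the KRTAP genes of chromosome 17 scored below the type I keratin genes on either side of them, but not in every block. The members pooled to 63.2 against 97.0 for the 28 keratin genes, a ratio of 0.651 (0.631 to 0.672), and 13 of 33 members overlapped a peak against 21 of 28 keratin genes, whose intervals are longer. By block, grouped after the values were seen, the 7 KRTAP3 and KRTAP1 genes pooled to 97.4 and KRTAP29-1, KRTAP16-1 and KRTAP17-1 to 117, at or above the keratin genes. The 23 KRTAP2, KRTAP4 and KRTAP9 genes pooled to 55.6, with a median of 52.5. Of their 3788 reads, KRTAP4-9, KRTAP4-2 and KRTAP9-9 gave 932, 752 and 460. The intervals of these 3, of 22.3, 9.62 and 6.64 kb, far exceed their RefSeq genes of 1.10, 0.776 and 0.981 kb. They overlap other members, whose reads count again. Without intervals over 3 kb the whole cluster pooled to 72.0. The nearest on either side, the hair keratin genes KRT40 and KRT33A, scored 69.8 and 84.9, with no peak. Against all other gene intervals within 500 kb the ratio was 1.03 (0.999 to 1.06), and within 200 kb it was 0.678.

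The KRTAP5 genes of chromosome 11 were close to the middle of all genes. None overlapped a peak, 6 of 11 exceeded the median of all intervals and 0 exceeded the 90th percentile. The 6 members of the short arm pooled to 39.3 (35.1 to 43.9) and the 5 of the long arm to 29.2 (27.4 to 31.2), a ratio of 1.34 (1.18 to 1.53). On the short arm KRTAP5-3 scored 52.0 (40.3 to 66.2), KRTAP5-6 45.2 and KRTAP5-2 43.8, and below them KRTAP5-1 38.1, KRTAP5-5 37.4 and KRTAP5-4 23.9 (16.8 to 32.9). On the long arm KRTAP5-9 was highest at 36.6 (27.7 to 47.4), followed by KRTAP5-11 at 30.4, KRTAP5-10 at 26.7, KRTAP5-7 at 19.7 and KRTAP5-8 at 17.4 (11.5 to 25.3). KRTAP5-11 gave 730 of the 939 reads of the long arm, from an interval of 23.6 kb where its RefSeq gene has 1.02 kb.

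The genes beside the chromosome 11 clusters spanned a wide range. DUSP8, a phosphatase gene, scored 25.7 and IFITM10 86.4 on either side of the short-arm cluster, both with no peak. DHCR7, the last enzyme of cholesterol synthesis, scored 42.4 with 14.2% of its length in peaks, and the short interval AP003498.1 scored 15.4 from 8 reads, on either side of the long-arm cluster. The short-arm members pooled to 1.24 times the gene intervals within 500 kb (1.10 to 1.38) and 0.962 times those within 200 kb (0.858 to 1.08). The long-arm members pooled to 0.467 times those within 500 kb (0.437 to 0.498) and 0.807 times those within 200 kb (0.754 to 0.864). The 500 kb set is one whose own median of 20.3 lies below its pooled 62.6.

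Members whose start region resembles that of another member scored lower than the others in 2 clusters. This grouping, at 70% identity of the start region to that of another member, was chosen after the values were seen. Over all clusters the 37 members at or above 70% had a median corrected score of 54.5, against 68.5 for the 42 below it. On chromosome 17 the medians were 51.8 over 20 members against 96.1 over 12, and in distal chromosome 21 they were 66.7 over 9 against 113 over 6. In proximal chromosome 21 they were 55.2 over 8 and 55.2 over 22. The sources used here do not give how reads that fit several copies were counted, and the part of such reads in these values was not tested.

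The hair-shaft partners and regulators of these genes, 28 in all, had a median corrected score of 74.4. Of these, 25 lay above the median of all intervals, as 50% of all intervals do by definition. A peak overlapped 19, against 33.5% of all intervals, and covered at least 50% of 5, against 5.55% of all intervals. Their intervals run from 2.04 to 121 kb, and these counts were not set against intervals of like length. The 11 type I hair keratins had a median of 95.9 with 7 overlapping a peak, the 6 type II hair keratins 61.9 with 4, and the other 11 genes 51.4 with 8. TCHH, which encodes the inner root sheath protein trichohyalin, scored 199 and was 88.4% covered by peaks. HOXC13, the transcription factor of hair keratin and KRTAP genes, scored 171, and KRT38 scored 129. The lowest was the type II hair keratin gene KRT81 at 13.7 with no peak.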

How the data were processed

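The authors deposited, for the H3K9me3 library, a read count per gene interval, not normalised, with the interval's length and coordinates, and a score. The deposited score equals reads divided by length in kb, checked in every interval (largest difference 3.03e-06), and is not scaled to depth, IgG or copy number. The peak list gives positions only, on a 150 bp grid. The submitters' processing notes name Bowtie2, MACS and the hg19 build but state no version or role for them. The library's total depth and the counting of multiply placed reads are not given in the sources used.

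The corrected score is reads over length plus 369 bp, estimated as reads in excess of the host's density over 6126 nested intervals. The calculation was checked on simulated data. Those data gave nested intervals their host's density, so they could not check that assumption. Score intervals are exact Poisson, ratio intervals exact conditional binomial and share intervals Clopper-Pearson, all at 95%. They cover counting error only. With 1 library no p-value was computed. A peak counts from 1 bp of overlap. Of the members, 22 overlap another gene, 12 overlap another member, and 11 have an interval over 1.5 times their RefSeq length. Start regions were aligned with Biopython 1.88; their coordinates are GRCh38.p14 and were not joined to the hg19 data by position. Tables were computed in Python 3.11.15 with pandas 2.3.3 and numpy 2.4.6, intervals with scipy 1.17.1, and figures were drawn with matplotlib 3.10.9.

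Members and lists were chosen with earlier results of these data known. Genes named are the 3 highest and 3 lowest of each cluster, those with at least 50% of their interval in peaks, TSPEAR, the nearest other gene on either side, and the 3 highest and the lowest hair-shaft genes. Genes named in other places, such as KRTAP4-8, KRTAP10-11 and TIAM1, were chosen after their values were seen. Protein composition was not analysed here; protein classes are textbook ones.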

Additional observations from a re-analysis of the deposited data

How the results depend on the processing

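Over 32 results and 221 alternative values, 128 stayed within the 95% interval of the reported value, 86 moved outside it and 7 reversed. The 128 include alternatives that could not change a value, so the tally is no measure of stability. These are filters that removed no member, and distal over proximal chromosome 21 divided by the same chromosome median. The cause of each change was not tested beyond what the alternative removes. Chromosome 21 over chromosome 17 (1.22) reversed without members overlapping another gene (0.827), without members over 3 kb (0.944), without start regions 70% or more identical to another (0.899), without the distal cluster (0.949) and over chromosome medians (0.679). It was 1.43 as deposited, 1.36 with 100 bp added and 1.5 without the proximal cluster. The short-arm ratio to neighbours (1.24) was 0.962 at 200 kb and 1.67 as deposited. The share of members with a peak, 0.802 times that of all intervals, was 1.69 times that of intervals of 0.3 to 3 kb.

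Chromosome 21 over chromosome 11 (2.47) was 3.06 as deposited, 2.86 with 100 bp added, 1.86 without members overlapping another gene, 1.99 without members over 3 kb, 2.69 without similar start regions, 2.64 without the short-arm and 1.97 without the long-arm cluster, 3.03 without the proximal and 1.92 without the distal cluster, and 1.82 over chromosome medians. Chromosome 17 over chromosome 11 (2.02) was 2.25 without members overlapping another gene and 2.99 without similar start regions. It was 2.16 without the short-arm and 1.61 without the long-arm cluster, and 2.68 over chromosome medians. The filter on start regions kept every member for which no start region was found. It removed none of the 11 members of chromosome 11, of which 2 had a start region. In the values 2.69 and 2.99 only the other chromosome was thus filtered. Distal over proximal chromosome 21 (1.58) was 1.21 as deposited, 1.33 with 100 bp added, 1.21 without members over 3 kb and 1.80 without similar start regions.

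Pooled scores with 100 bp added were 96.6 on chromosome 21, 71.0 on chromosome 17, 33.7 on chromosome 11, 109 distal and 82.1 proximal, and as deposited 106, 74.4, 34.8, 115 and 95.1. With 300 bp added they were 81.4 on chromosome 21, 65.0 on chromosome 17 and 64.4 proximal. Without members overlapping another gene they were 59.3 on chromosome 21, where only proximal members remain, and 71.8 on chromosome 17. Without members over 3 kb they were 67.9 on chromosome 21, 72.0 on chromosome 17, 34.2 on chromosome 11 and 75.3 distal. Without similar start regions they were 84.1 on chromosome 21, 93.5 on chromosome 17 and 109.5 distal, with a chromosome 17 median of 92.7. Without the short arm chromosome 11 pooled to 29.2, without the long arm to 39.3. Chromosome 21 pooled to 94.6 with a median of 75.4 without its proximal cluster, and to 60.0 without its distal one. Medians as deposited were 102 on chromosome 21 and in its proximal cluster and 48.0 on chromosome 11, and with 100 bp added 89.5 on chromosome 21 and 85.8 in its proximal cluster.

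Members with a peak within 2 kb were 87.5% distal, 60.6% on chromosome 17 and 36.4% on chromosome 11. Within 10 kb they were 57.1% on chromosome 21, 100% distal, 36.4% proximal, 93.9% on chromosome 17 and 72.7% on chromosome 11. The shares of all gene intervals within these distances were not computed, so whether these values are particular to the members was not tested. With peaks of 1500 bp or more the share of members overlapping a peak was 12.1% on chromosome 17 and 0% proximal, also without a background value. On chromosome 21 the share overlapping any peak was 9.38% without members overlapping another gene, where only proximal members remain. It was 56.2% without the proximal and 9.09% without the distal cluster. Peaks of 1500 bp or more covered 59.2% of the distal, 0.238% of the proximal, 7.40% of the chromosome 17 and 5.29% of the short-arm span. The distal span extended by 50 kb was 56.1% covered. Members above the 90th percentile were 15.1% against intervals of 0.3 to 3 kb and 9.68% as deposited, beside the 10% of all intervals.

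Neighbour sets include intervals that overlap members, so reads in such an overlap count on both sides of these ratios. Ratios to neighbours as deposited were 1.83 distal, 1.65 proximal and 1.18 on chromosome 17. At 200 kb they were 1.27 distal, 0.957 proximal, 0.678 on chromosome 17 and 0.807 on the long arm. Without members over 3 kb they were 1.21 distal, 1.17 on chromosome 17 and 0.398 on the long arm. The alternatives without long members and without similar start regions were chosen after seeing the data, the filter on start regions in place of a filter on 90% protein identity, which was not run because no protein sequences were used here. Filters on antisense and pseudogene members and on fewer than 10 reads removed none. No paired analysis was possible because 1 H3K9me3 library was analysed. Precision is limited by counts of 19 to 1507 reads per member and by peaks listed without height.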

Other observations

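Score and peak call parted in several members, named here after their values were seen. KRTAP3-1 scored 124 reads per kb with the nearest peak 11035 bp away, KRTAP13-4 scored 111 with the nearest peak 13822 bp away, and KRTAP4-12 scored 99.6 with the nearest 8293 bp away. KRTAP19-2 scored 95.7 and lay 30112 bp from a peak. In the other direction, KRTAP4-9 counts among the members with a peak although 6.02% of its 22.3 kb interval is in peaks, and KRTAP2-2 although 0.136% of it is. KRTAP10-9, at 75.1 reads per kb, started 40 bp from a peak that covers 70.3% of the 300 bp around its start, and counts among those with no peak over the interval.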
